A study of Tupaia belangeri with 6 samples.

Results

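The nuclei described here are a group of ADARB2-positive inhibitory neurons (InNs) with many transcripts of CNR1, the gene of the CB1 cannabinoid receptor, in the hippocampus of the tree shrew (TS, Tupaia belangeri). They were selected on measured values. A nucleus was a member when it held 200 or more genes, at least 2 unique molecular identifiers (UMIs, counted transcript molecules) of ADARB2 and at least 3 of CNR1. It also held at most 1 UMI of VIP, CALB2, LAMP5 and KIT together, at most 1 of NXPH1, and none of MOG, PDGFRA, AQP4, PTPRC and NEUROD6. Of 37603 nuclei, 317 met this rule, and these are called CNR1-high ADARB2 InNs. The levels of the genes in the rule are therefore given as description, with no test. The series profiled single nuclei from 3 control TSs and 3 TSs with Alzheimer's-like pathology (ALP), with 1 library per animal. ALP TSs were naturally aged animals picked by their performance in a maze, and control TSs were healthy animals matched for age. The labels name no transgene, engineered allele or treatment, and by the study's methods the animals were imaged under anesthesia before the tissue was taken. The labels give neither age nor sex, so the groups are compared here only as labelled.

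CB1-rich interneurons of the hippocampus form a well-known class of GABAergic cells that arise from the caudal ganglionic eminence (CGE). Many of them make the neuropeptide cholecystokinin (CCK) and contact the somata and dendrites of pyramidal neurons. Endocannabinoids released by an active pyramidal neuron bind CB1 on their terminals and briefly reduce GABA release. ADARB2, a catalytically inactive relative of the RNA-editing enzymes, is a common marker of CGE-derived interneurons, whereas NXPH1, LHX6 and SOX6 mark those of the medial ganglionic eminence (MGE).

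The 6 libraries held between 19182981 and 35898940 UMIs. Control libraries gave 49, 57 and 82 members and ALP libraries 50, 45 and 34. The summed members of a library held between 203073 and 607910 UMIs. In control TSs the median member had 7005, 7021 and 6870 UMIs and 2632, 2559 and 2787 genes. In ALP TSs it had 6513.5, 6352 and 6105.5 UMIs and 2187.5, 2263 and 1949 genes. All 3 ALP libraries thus lay below all 3 control libraries in both measures (two-sided exact permutation test, p = 0.1, the smallest that 3 against 3 animals allow). Control 2 stood apart in the number of nuclei, with 3011 against 5091 to 8785 in the other libraries. It also stood apart in depth, with a median of 5181 UMIs per nucleus against 1747 to 2492. Transcripts with Y-linked names reached 61.0, 75.4 and 75.9 CPM (UMI counts scaled to a common total) in control 1, control 2 and ALP 2 and at most 0.557 in the others, so both groups held libraries of each kind. No member barcode was shared between libraries, and over all nuclei the shared barcodes came to at most 0.465% of the smaller library. Doublet scoring marked 3 members, all from control libraries.

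The label was checked against marker genes. Because nuclei differ in depth, detection is given as the share expected to hold a UMI when each nucleus is reduced to 2000 UMIs. MOG-positive oligodendrocyte nuclei, with median depths of 1383 to 5049 UMIs per library against 6105.5 to 7021 in members, served as the comparison. Doublets were kept in that set, and single nuclei of it held up to 231 ADARB2 and 33 COL19A1 UMIs. The part of free RNA in its shares was not tested. Nuclei with fewer than 2000 UMIs were left out, which keeps 317 of 317 members and 1742 of 3964 MOG-positive nuclei. COL19A1, a collagen gene, was detected in 71.8% of members against 9.20% of MOG-positive nuclei. CXCL14, a chemokine of CGE interneurons, was detected in 39.2% against 2.87%, and CCK in 29.4% against 7.19%. These 3 genes are outside the rule, but they were named as markers with earlier results of these data known. The homeobox genes DLX6 and DLX2, which specify GABAergic neurons, were detected in 32.6% and 26.6% of members against 1.33% and 1.21% of MOG-positive nuclei. NPAS1, a transcription factor of CGE interneurons, reached 30.8% against 1.34%. The CGE list was mixed as a whole. In CPM scaled by total UMIs (mean of 6 libraries), NPAS1 was at 191 in members and 15.4 in all other nuclei, NPAS3 at 3338 against 848, SLC17A8 at 92.6 against 6.39, NR2F1 at 225 against 154 and NR2F2 at 36.3 against 15.0. PROX1, however, was at 9.17 against 43.0, NFIX at 13.4 against 116, CALB1 at 4.99 against 38.9 and NFIB at 304 against 325, with SP8 at 2.11 against 0.401 and HTR3A at 0 in members.

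The usual GABAergic markers could not serve as a check. GAD2 and SLC32A1, for GABA synthesis and vesicular loading, had a UMI in 0 of 317 members, which allows a share of up to 0.946% with a UMI. Both were also at 0 in every other nucleus of the series, so these zeros do not bear on the identity of members. GAD1 had one in 18 members, or 5.68%. Genes of other neurons were mostly rare without thinning: LHX6 and PVALB each had a UMI in 1 member, SST in 27, NPY in 38, SLC17A7 in 10 and CAMK2A in 29. By library, NPY was in 4.44% to 29.4% of members and SST in 1.75% to 17.6%, both highest in ALP 3. NPY averaged 47.9 CPM of total UMIs in members and 40.9 in all other nuclei. Apart from CNR1 and ADARB2, which the rule itself required, the label therefore rested on COL19A1, CXCL14, CCK, the DLX genes and some of the CGE list, and not on the GABA-synthesizing enzymes. These genes were also found in the other ADARB2 sets described below, VIP/CALB2 and LAMP5/KIT InNs. At 2000 UMIs CXCL14 was detected in 14.3% and 47.3% of those, and CCK in 37.5% and 38.2%. DLX6 was in 36.1% and 31.6%, and COL19A1 in 8.31% and 52.7%. CCK was thus in a larger share of both sets than of members, and CXCL14 in a larger share of LAMP5/KIT InNs. ADARB2 was also detected in 31.3% of MOG-positive nuclei at 2000 UMIs, against 3.85% for CNR1. Intervals and limits of this kind cover counting error only.

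**Figure D1:**
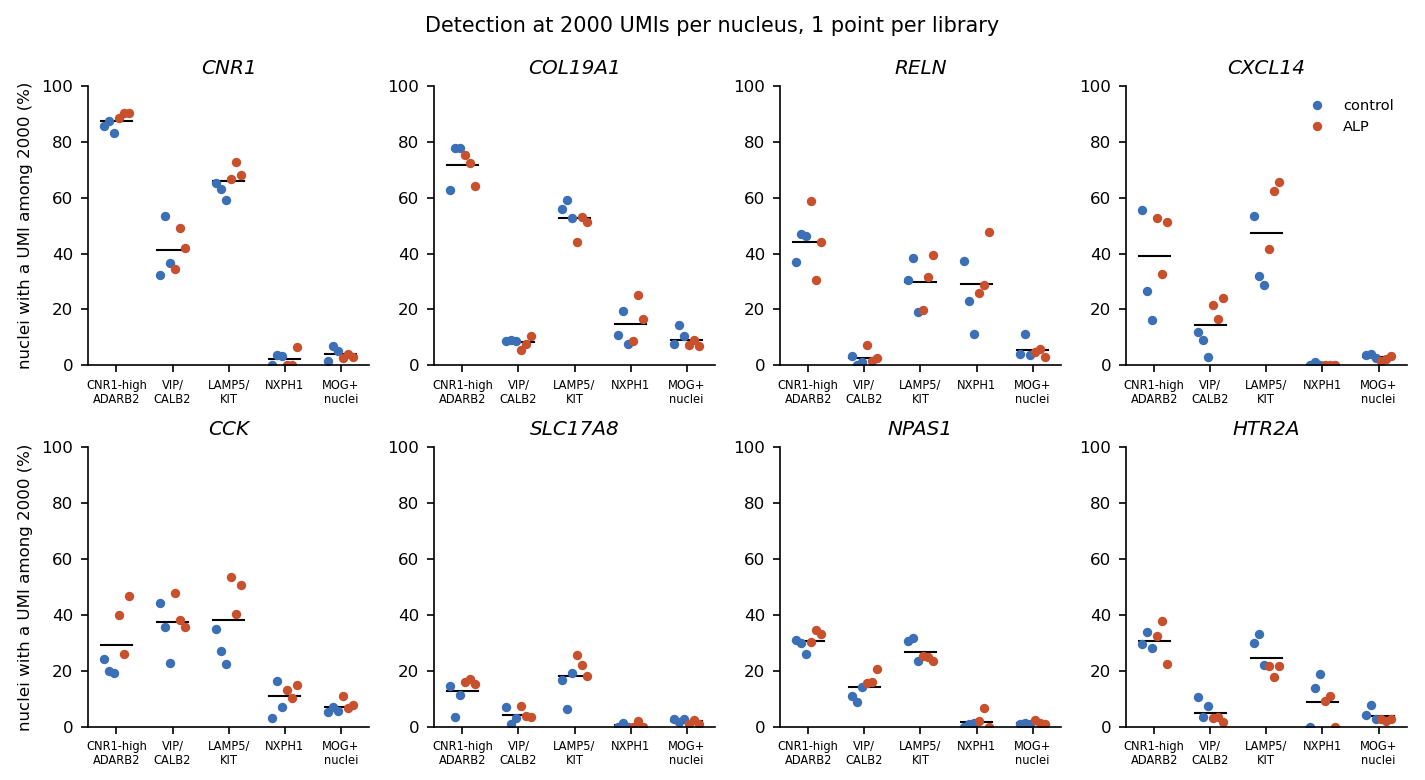
Share of nuclei (%) expected to hold at least 1 UMI of each of 8 genes when every nucleus with at least 2000 UMIs is reduced to that number, with 1 point per library and a line for their mean, for CNR1-high ADARB2 InNs, VIP/CALB2, LAMP5/KIT and NXPH1 InNs and MOG-positive nuclei. COL19A1 averaged 71.8% in CNR1-high ADARB2 InNs, 8.31% in VIP/CALB2 InNs and 9.20% in MOG-positive nuclei.

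Other cell types left few transcripts in members. Levels in this paragraph are CPM, scaled by all UMIs of the summed members. The excitatory list summed to 51.2, 29.8 and 29.6 in control TSs and 21.3, 69.1 and 24.6 in ALP TSs, against a mean of 435 in all other nuclei. NEUROD6, which the rule excluded, and NRGN were at 0, and CAMK2A gave the most, 16.7. The oligodendrocyte list summed to 127, 69.5 and 70.7 in control TSs and 30.4, 55.3 and 54.2 in ALP TSs, against 978 elsewhere. All ALP libraries were below all control libraries in that sum, and MOG, which the rule excluded, MBP, MOBP and MAG were at 0. The part of this sum in the differences between ALP and control members was not tested. MBP and MOBP were also almost absent elsewhere, at 0.120 and 0. The astrocyte list summed to between 30.4 and 44.7 against 360, with SLC1A3 the most abundant at 18.4. The rule required 0 UMIs of AQP4, PTPRC and PDGFRA, which belong to the astrocyte, microglia and oligodendrocyte precursor lists, so part of these low sums was fixed by the selection. The microglia list summed to between 19.7 and 37.2 against 133, and the vascular list to between 10.4 and 31.3 against 74.0. The oligodendrocyte precursor list stood higher, at 399 to 1007 against 607, and 599 of its mean came from LHFPL3, which neurons also express.

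Members varied widely among themselves. A member held between 2508 and 32726 UMIs, with a median of 6589. ADARB2 ranged from 2 to 891 UMIs with a median of 76, and CNR1 from 3 to 21 with a median of 6. COL19A1 had a median of 8 UMIs and was at 0 in 51 members. RELN, which encodes the secreted glycoprotein reelin, was at 0 in 150, CXCL14 in 123 and CCK in 159. Per library, 42.9%, 56.1% and 54.9% of control members and 66.0%, 37.8% and 55.9% of ALP members held a RELN UMI. For CCK the shares were 53.1%, 38.6% and 40.2% against 66.0%, 46.7% and 67.6%. The groups overlapped in both. At 2000 UMIs per nucleus the CCK shares were 24.2%, 19.9% and 19.3% in control members and 39.97%, 26.1% and 46.8% in ALP members, without overlap, and the RELN shares still overlapped. One member held 98.7% of the 1351 UMIs of TTR, the transthyretin of the choroid plexus, so no value for TTR is given by group.

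The threshold on CNR1 cut through a gradient. The 48 members with exactly 3 CNR1 UMIs had 1230 COL19A1, 838 RELN, 264 CCK and 164 CXCL14 CPM, scaled by total UMIs. The 120 nuclei that met the rest of the rule with 2 CNR1 UMIs had 979, 363, 114 and 113. COL19A1 was at 378 in the 251 nuclei with 1 CNR1 UMI and at 124 in the 2135 with none. At the threshold on VIP, CALB2, LAMP5 and KIT, COL19A1 was at 1580 in the 212 members with none, 1003 in the 105 members with 1 and 920 in the 55 nuclei just outside with 2. CCK ran the other way, at 172, 344 and 556. The ADARB2 threshold mattered little, with 1 member at 2 UMIs and 2 nuclei outside at 1.

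Reelin divided the members. RELN was detected in 60.9% of members with COL19A1 and in 9.80% of those without, and in 61.9% of members with CXCL14 against 38.2% of the rest. SLC17A8, the vesicular glutamate transporter VGLUT3 found in some CCK interneurons, went with CCK: 76.9% of members with an SLC17A8 UMI also held CCK, against 41.0% of those without. These shares are descriptive, since nuclei of 1 library share their depth and free RNA.

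Members with and without RELN were summed separately in each library. The genes named in this paragraph were chosen after their values were seen and carry no test, and levels are CPM scaled by total UMIs, as mean ± SD over 6 libraries. IL1RAPL2, a synaptic adhesion protein, was at 215 ± 57.5 with RELN and 27.2 ± 22.5 without. SEMA5A, a semaphorin guidance cue, was at 466 ± 80.5 against 103 ± 51.4, and PRKCA, a protein kinase C, at 805 ± 175 against 205 ± 119. KCTD8, an auxiliary subunit of GABA-B receptors, was at 544 ± 80.2 against 158 ± 96.3, and COL19A1 at 1743 ± 269 against 871 ± 391. Each of these was higher with RELN in 6 of 6 libraries. On the other side, SLC17A8 was at 23.5 ± 11.8 with RELN and 169 ± 84.7 without, and PBX3, a homeobox factor, at 130 ± 80.2 against 561 ± 190. CCK was at 190 ± 125 against 372 ± 295 and was lower with RELN in 6 of 6 libraries. CNR1 (1071 against 1017) and NPAS1 (195 against 182) were each higher in 3 libraries and lower in 3.

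**Figure D2:**
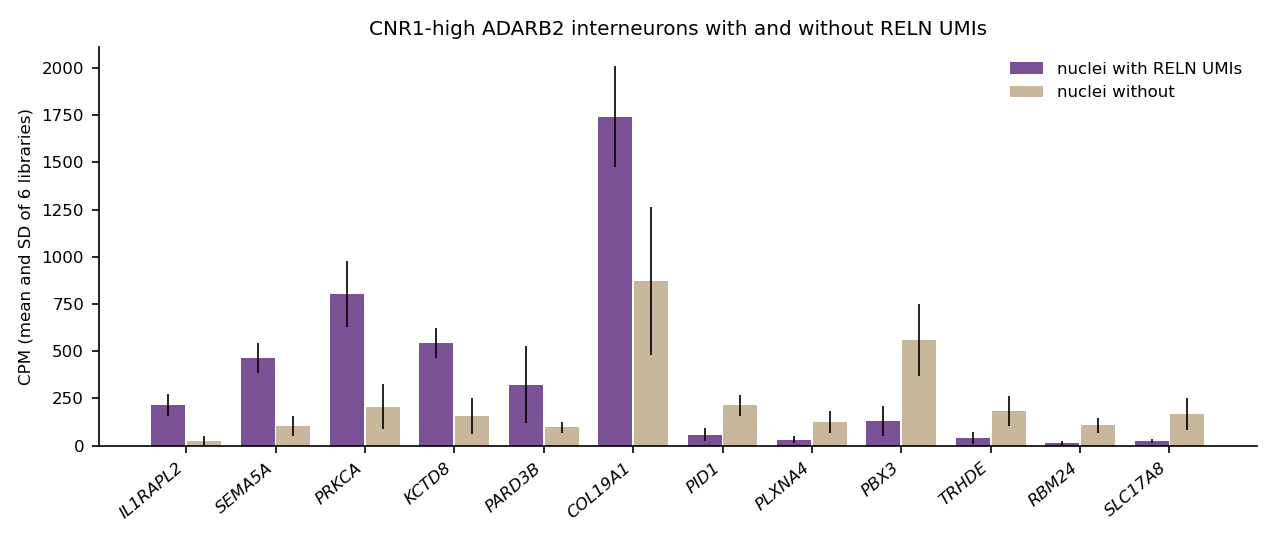
CPM (linear axis, bars with mean ± SD of 6 libraries) of selected genes in CNR1-high ADARB2 InNs with and without a RELN UMI. COL19A1 was at 1743 with RELN and 871 without, whereas SLC17A8 was at 23.5 with RELN and 169 without.

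Genes higher in members included RELN, COL19A1 and HTR2A against VIP/CALB2 InNs and KCNB2, NTNG1 and NETO2 against LAMP5/KIT InNs. Against NXPH1 InNs they included CXCL14, NPAS1 and PBX3. Genes lower in members included PROX1, RYR3 and SOX6, in the same order of sets. Members were compared with 3 sets of nuclei from the same libraries. These were 277 VIP/CALB2 InNs and 178 LAMP5/KIT InNs, both positive for ADARB2, and 86 NXPH1 InNs. The NXPH1 InNs held at most 1 ADARB2 UMI (8 held 1) and at least 1 of GAD1. Of the LAMP5/KIT InNs, 175 held a KIT UMI and 27 a LAMP5 UMI, and 81 of 317 members held a KIT UMI. The test was edgeR's quasi-likelihood test with library as a block, and a gene was called at a Benjamini-Hochberg adjusted p under 0.05 and a change beyond 1 on the log2 scale. Genes of the rules were left out, and levels are TMM-scaled CPM. Against VIP/CALB2 InNs, 260 of 4209 features were called (6.18%), of which 136 were higher in members (3.23%) and 124 lower (2.95%). Against LAMP5/KIT InNs, 79 of 4040 were called (1.96%), 31 higher (0.767%) and 48 lower (1.19%). Against NXPH1 InNs, 345 of 2906 were called (11.9%), 186 higher (6.4%) and 159 lower (5.47%).

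Reelin and COL19A1 gave the largest differences from VIP/CALB2 InNs among the named genes. RELN ran from 901 to 1789 with a median of 1031 in members, and from 0 to 53.4 with a median of 12.5 in VIP/CALB2 InNs (log2 difference 6.07, SE 0.27, adjusted p = 3.1e-12). COL19A1 ran from 1239 to 1848 with a median of 1756, against 47.6 to 117 with a median of 60.7 (log2 difference 4.53, SE 0.18, adjusted p = 4.1e-13). The libraries of the sets did not overlap for either gene. HTR2A, the serotonin 2A receptor, was at 304 ± 70.8 against 33.2 ± 26.6, and PLCXD3 at 417 ± 124 against 44.3 ± 19.9. CYYR1, IL1RAPL2 and LORF2li302 were also among the largest differences toward members, with log2 differences of 4.14, 2.90 and 3.69. The name of LORF2li302 marks a copy that shares its stem with other features, so its reads may be divided among them. CXCL14 was also higher, at 433 ± 224 against 109 ± 71.3 (log2 difference 2.08, 6 of 6 libraries).

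Among genes lower than in VIP/CALB2 InNs, the homeobox factor PROX1, which maintains CGE interneurons, ran from 0 to 25.1 with a median of 9.23 in members and from 39.9 to 147 with a median of 115 in VIP/CALB2 InNs. Every member library was below every VIP/CALB2 library (log2 difference -3.15, SE 0.40, adjusted p = 7.4e-06). The calcium-binding protein gene CALN1 was at 36.9 ± 15.4 against 391 ± 108, and the sorting receptor gene SORCS1 at 53.7 ± 19.3 against 521 ± 260. RYR3, a calcium release channel, was at 25.9 ± 17.4 against 192 ± 85.5. PLPP4, the cadherin CDH7, the phosphodiesterase PDE1C and the retinoic acid receptor RARB were lower by 3.73, 2.90, 2.69 and 2.58 on the log2 scale. CCK was at 344 ± 267 in members and 492 ± 269 in VIP/CALB2 InNs, a log2 difference of -0.66 (edgeR adjusted p = 0.0028) that did not reach the size required for a call.

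LAMP5/KIT InNs were closer to the members in several markers. CNR1 itself, a gene of the rule and given with no test, was at 1052 ± 143 CPM of total UMIs in members, 1007 ± 281 in LAMP5/KIT InNs and 382 ± 83.5 in VIP/CALB2 InNs. COL19A1 was at 1532 ± 246 in members and 823 ± 158 in LAMP5/KIT InNs, higher in 6 of 6 libraries by 0.91 on the log2 scale (edgeR adjusted p = 8.8e-05), which is below the size of a call. RELN was at 1081 ± 315 against 749 ± 265 (log2 difference 0.62, SE 0.19, adjusted p = 0.0519), and CXCL14 at 403 ± 205 against 567 ± 301 (log2 difference -0.50). CCK was called lower in members, at 319 ± 246 against 765 ± 626 (log2 difference -1.12, SE 0.16), with 5 of 6 libraries in that direction. KCNB2, a delayed-rectifier potassium channel, ran from 361 to 1209 with a median of 709 in members and from 87.4 to 286 with a median of 158 in LAMP5/KIT InNs. The libraries did not overlap (log2 difference 2.13, SE 0.14, adjusted p = 2.2e-10). NTNG1, a netrin-G adhesion protein, was at 301 ± 119 against 76.1 ± 51.4. NETO2, an auxiliary subunit of kainate receptors, was at 615 ± 177 against 161 ± 86.7, and the ephrin receptor EPHA3 at 334 ± 66.0 against 106 ± 41.4. IL1RAPL2, FHOD3, PTCHD4 and TNFAIP8L3 were higher by 1.78, 1.61, 1.61 and 1.59. RYR3 was lower here too, at 24.3 ± 16.4 against 218 ± 104, and so were PRKG1, the cyclic GMP-dependent kinase, at 79.4 ± 52.4 against 342 ± 191, and SOX5, a transcription factor, at 33.4 ± 26.0 against 208 ± 74.5. HS3ST4, PKP2, NFIX, L1RE1li231 and IL1RAP had log2 differences between -2.17 and -1.82. Some of these calls were less firm. HS3ST4 and FHOD3 lost theirs without the library block (log2 differences -2.21 and 1.57, edgeR adjusted p = 0.0653 and 0.0722). HS3ST4 lost its call with DESeq2 (log2 difference -2.14, adjusted p = 0.0749) and L1RE1li231 without control 3 (log2 difference -1.11, edgeR adjusted p = 0.087). With DESeq2, FHOD3, PKP2 and NFIX had no adjusted p and so no call, at log2 differences of 1.63, -2.06 and -2.08.

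The NXPH1 InNs differed most. CXCL14 ran from 145 to 706 with a median of 501 in members, while the NXPH1 InNs held a single UMI over all libraries, a ratio of 193 with a counting interval of 34.4 to 7617. COCH, the cochlin gene, also had 1 UMI there (ratio 77.5, interval 13.8 to 3072). SORCS3, a sorting receptor, was at 898 ± 215 against 29.4 ± 26.7, PBX3 at 436 ± 164 against 11.9 ± 9.84, and NPAS1 at 255 ± 51.7 against 11.1 ± 13.1. TMEM200A, NSA2li30 and COL19A1 were higher by 4.26, 4.23 and 3.77 on the log2 scale. SOX6, which specifies MGE interneurons, ran from 0 to 16.6 with a median of 3.22 in members and from 120 to 578 with a median of 331 in NXPH1 InNs. The libraries did not overlap (log2 difference -5.68, SE 0.33, adjusted p = 8.4e-11). RSPO2, a Wnt signalling ligand, was at 21.8 ± 13.4 against 633 ± 122, and PTPRT, a receptor tyrosine phosphatase, at 56.6 ± 40.9 against 1487 ± 465. OPRM1, the mu opioid receptor, was at 6.88 ± 5.86 against 122 ± 68.7, while SFMBT2, CUX2, MAN1A1 and GPC6 were lower by between 4.63 and 3.68. The 86 NXPH1 InNs were few. A set defined by DLX genes in place of GAD1, chosen after the data were seen, gave 604 calls of 6592 features tested. Of these calls, 264 were higher in members, 340 were lower and 273 were shared. In that set CXCL14 was at 2.78 ± 1.42 against 406 ± 208 in members.

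Few features separated the members from all 3 sets. Of 2859 features tested in each comparison, 8 were called higher in members every time (0.28%), among them PLCXD3, TNFAIP8L3, LINC-MYOF-4, LINC-NETO2-1, LINC-RPL6-521, LINC-RPL6-561 and ODZ3-AS-6. The last is named as antisense and the use of strand is not given in the sources used here, so its reads cannot be told apart from those of its partner gene. Lower every time were 9 (0.315%): ADGRL2, CALN1, CNTNAP2, HS6ST3, IL1RAPL1, LINC-RBFOX1-2, OPCML, PRKG1 and SOX5. CNTNAP2, an axonal adhesion protein of the neurexin family, was at 1402 ± 390 in members against 4302 ± 914 in VIP/CALB2 InNs. It was lower than in LAMP5/KIT InNs by 1.18 and lower than in NXPH1 InNs by 2.04 on the log2 scale.

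**Figure D3:**
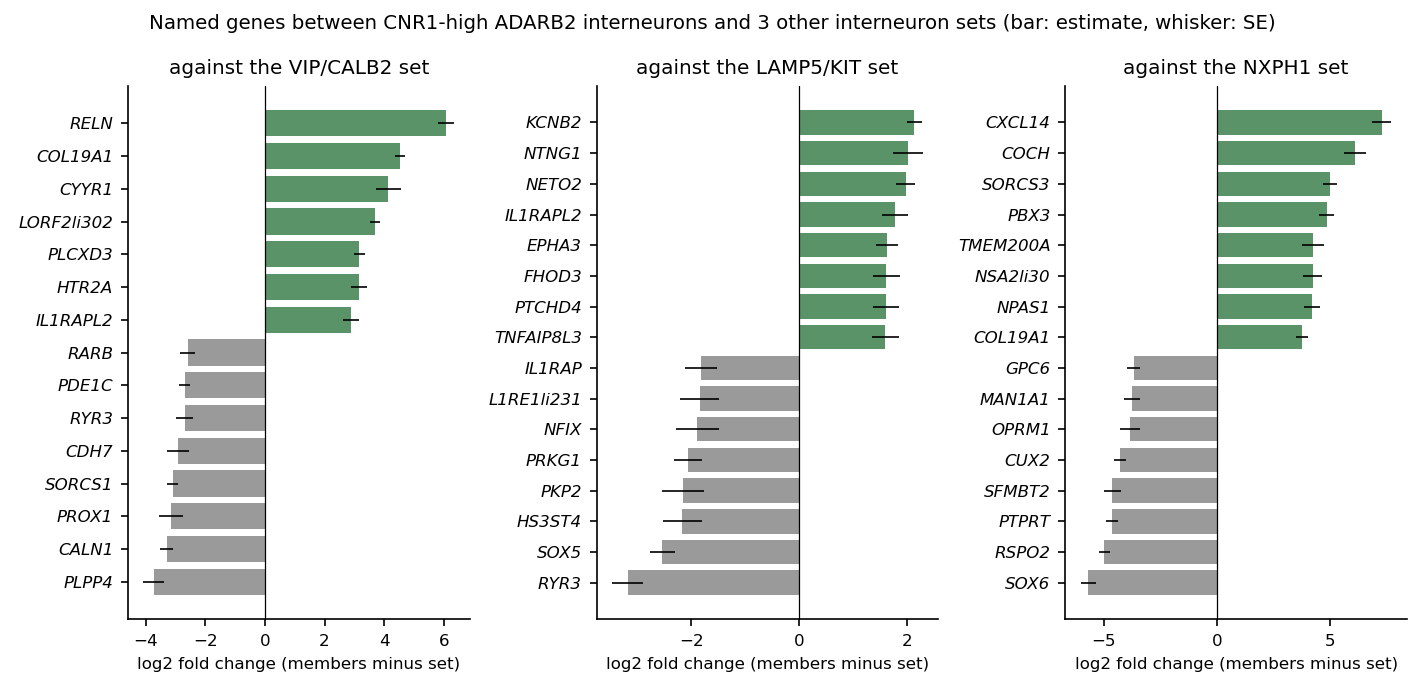
Log2 difference in TMM-scaled CPM between CNR1-high ADARB2 InNs and the VIP/CALB2, LAMP5/KIT and NXPH1 sets for named genes, as bars with whiskers of ± SE (6 libraries per set). Positive values are higher in CNR1-high ADARB2 InNs, and RELN against VIP/CALB2 InNs reached 6.07.

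Gene families were then counted against the shares of all features called, which were 3.23% higher and 2.95% lower against VIP/CALB2 InNs, 0.767% and 1.19% against LAMP5/KIT InNs, and 6.4% and 5.47% against NXPH1 InNs. Of genes for endocannabinoid synthesis and breakdown, 7 were tested against each of the ADARB2 sets and none was called in either. Against NXPH1 InNs 5 were tested, and PLCB1, a phospholipase C, was lower by 1.02 on the log2 scale. Of genes that couple CB1 to its effectors, ADCY8, an adenylyl cyclase, was the only one of 12 called against VIP/CALB2 InNs (39.0 against 137, log2 difference -1.71). KCNJ3, a subunit of G protein-gated potassium channels, was the only one of 12 against LAMP5/KIT InNs (234 against 452, log2 difference -1.02). Against NXPH1 InNs, GNG2, a G protein subunit, was higher by 1.46 and ADCY8 lower by 1.72, of 10 tested. GNAI1, GNAI2, PRKAR2B and KCNJ6 were at 0 in members, as was CNR2, the other cannabinoid receptor.

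Of 17 glutamate receptor genes tested against VIP/CALB2 InNs, 5 were lower (2.95% of all features) and none higher: GRIK2, GRIN2A, GRM3, GRM7 and GRM8, by between 1.01 and 1.58 on the log2 scale. Of 15 tested against NXPH1 InNs, 4 were lower and 1 higher (5.47% and 6.4% of all features), and the AMPA receptor subunit genes GRIA3, GRIA1 and GRIA4 were lower by 2.65, 2.41 and 2.02. GABA receptor genes were not called against either ADARB2 set (12 and 11 tested). Against NXPH1 InNs 3 of 10 were higher (GABRA2 by 1.64, GABRB1 by 1.26, GABRG3 by 1.95) and 3 lower (among them GABRA3 and GABRA4, by 1.02 and 1.36). Of the serotonin, dopamine, opioid and other neuromodulator receptors, HTR2A and HTR1F were higher than in VIP/CALB2 InNs, of 3 tested. Synaptic adhesion genes with ERBB4 had 3 higher and 6 lower of 28 against VIP/CALB2 InNs, 1 and 3 of 29 against LAMP5/KIT InNs, and 3 and 8 of 27 against NXPH1 InNs. Transmitter release genes had RPH3A and PCLO, proteins of the presynaptic release machinery, higher of 19 against VIP/CALB2 InNs. Of 10 amyloid and tau genes tested there, APP, the amyloid precursor, was higher (757 against 370, log2 difference 1.05) and CLU, clusterin, was lower by 1.09. The median over all features tested was -0.01, 0.00 and -0.01 in the 3 comparisons.

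The share of members did not separate the groups. Members made up 0.558%, 1.89% and 1.03% of nuclei in control TSs and 0.982%, 0.629% and 0.608% in ALP TSs, or 1.16% ± 0.677 against 0.740% ± 0.210 (SD, n = 3 each, two-sided exact permutation test, p = 0.6). Control 2, which had the deepest nuclei, was the highest and control 1 the lowest, so the groups overlapped. The control mean was 0.793% without control 2 and 1.46% without control 1, when the groups no longer overlapped (exact permutation test, p = 0.1, the smallest possible). Of nuclei with 2 or more ADARB2 UMIs, at most 1 of NXPH1 and none of the excluded genes, 3334 in all, members were 13.0% ± 7.99 in control TSs and 9.19% ± 2.90 in ALP TSs (exact permutation test, p = 0.6). The difference of -3.79 percentage points became 0.318 without control 2. With the authors' limits on genes, which removed more control than ALP members, members were 0.787% ± 0.716 of nuclei in control TSs and 0.725% ± 0.190 in ALP TSs (exact permutation test, p = 1). The differences then were -0.062 percentage points of nuclei, in place of -0.420, and -0.285 of ADARB2 nuclei. With every nucleus reduced to 5000 UMIs, members were 2.89% ± 0.364 and 2.49% ± 0.648 of the remaining nuclei (exact permutation test, p = 0.4). Of ADARB2 nuclei, members were then 20.3% ± 5.95 in control TSs and 22.3% ± 8.44 in ALP TSs (exact permutation test, p = 0.8), the opposite direction.

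The makeup of the members' UMIs did separate them. Among 2000 UMIs a control member was expected to hold 1035, 1028 and 1096 genes and an ALP member 908, 984 and 872. The single intergenic feature LINC-FRMD8-1 took 23.6%, 25.2% and 18.6% of UMIs in control members and 33.6%, 28.7% and 38.2% in ALP members. Features named as antisense took 6.70%, 6.50% and 10.4% against 4.69%, 4.99% and 4.02%. In each of these measures the groups did not overlap (exact permutation test, p = 0.1, the smallest possible). The number of genes among 2000 UMIs did not overlap in LAMP5/KIT InNs (mean 1058.5 in control and 919.4 in ALP TSs) or MOG-positive nuclei (1165.7 and 1100). It overlapped in VIP/CALB2 InNs (1139.6 and 1078.3). The antisense share did not overlap in VIP/CALB2, LAMP5/KIT and MOG-positive nuclei either. The LINC-FRMD8-1 share did not overlap in LAMP5/KIT InNs and overlapped in VIP/CALB2 and MOG-positive nuclei. Features named for ribosomal proteins overlapped in members (exact permutation test, p = 0.7). What part this makeup has in the gene differences between ALP and control TSs was not tested.

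**Figure D4:**
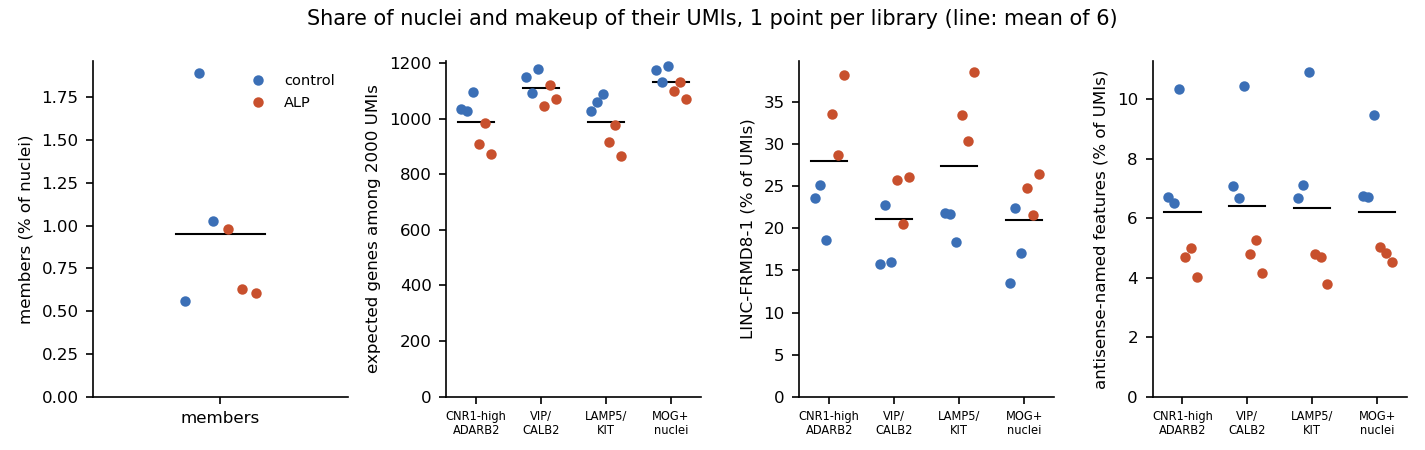
Share of members among nuclei (%), genes expected among 2000 UMIs, and the shares of members' UMIs (%) in LINC-FRMD8-1 and in antisense-named features, with 1 point per library and a line for the mean of the 6 libraries, and with the VIP/CALB2, LAMP5/KIT and MOG-positive nuclei beside them in the last 3 panels. In members the groups overlap in the share of nuclei and are apart in the other panels, with 23.6%, 25.2% and 18.6% LINC-FRMD8-1 in control against 33.6%, 28.7% and 38.2% in ALP TSs.

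In ALP members NCAPD2 and RPL7Ali3 rose, and LINC-UBE2E1-7 and CNTNAP2-AS-3 fell. These were the 4 features called of 4742 tested between ALP and control TSs (0.0844%), 2 higher (0.0422%) and 2 lower (0.0422%). The test was edgeR's quasi-likelihood test on UMIs summed per library, with a call at an adjusted p under 0.05 and a change beyond 0.25 on the log2 scale, and levels are TMM-scaled CPM unless another scale is named. An unadjusted p under 0.05 was reached by 598 features (12.6%). The ALP and control values did not overlap in 796 (16.8%), of which 384 were higher in ALP TSs (8.1%) and 412 lower (8.69%). The count of calls changed when single libraries were left out. It was 0 without ALP 1, 0 without ALP 3, 10 without ALP 2, 81 without control 1, 7 without control 2 and 3 without control 3. When libraries were scaled by their total UMIs, the median of all features moved from -0.01 to -0.23, and 3 features were called higher and 16 lower. Changes below are relative to the TMM scaling.

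NCAPD2, a subunit of the condensin complex that compacts chromosomes, was at 86.0, 91.6 and 75 in control members and 247, 222 and 343 in ALP members. It rose by 1.67 on the log2 scale (SE 0.24, edgeR adjusted p = 0.0166), with all ALP values above all control values. The call was lost without control 3 (adjusted p = 0.0754), ALP 1 (0.223) or ALP 3 (0.149) and with the authors' limits on genes (0.0856). Its log2 change was then 1.58, 1.74, 1.49 and 1.43. RPL7Ali3, which shares its name's stem with a ribosomal protein gene and is uncertain for that reason, was at 54.5, 62.8 and 57.6 against 169, 146 and 178 (log2 change 1.48, SE 0.24, adjusted p = 0.0448). That call was also lost without control 2, control 3, ALP 1 or ALP 3 (edgeR adjusted p from 0.0589 to 0.301) and with the authors' limits (0.111). Settings chosen after the data were seen lost it too: a term for Y-linked transcripts (edgeR adjusted p = 0.072) and removal of the member with most TTR (0.0527). The log2 change in all these settings was between 1.43 and 1.54. LINC-UBE2E1-7, an intergenic transcript, was at 74.6, 57.6 and 124 in control members and 0, 3.83 and 0 in ALP members. That is 119 UMIs against 1, a ratio of 70.7 with a counting interval of 12.5 to 2818 (edgeR adjusted p = 0.0166). CNTNAP2-AS-3, named as antisense to CNTNAP2, was at 181, 178 and 218 against 33.7, 53.6 and 63.6 (log2 change -1.98, SE 0.28, adjusted p = 0.0166). For both, every ALP library was below every control library, and both calls were lost without ALP 1 or ALP 3 (edgeR adjusted p from 0.113 to 0.279). The log2 changes of CNTNAP2-AS-3 were then -1.72 and -2.13. Those of LINC-UBE2E1-7, which had 1 UMI in ALP members, were -4.98 and -5.28, against -5.58 with all libraries. CNTNAP2-AS-3 also lost its call with a CNR1 minimum of 5 (log2 change -1.81, edgeR adjusted p = 0.0568), as did RPL7Ali3 (log2 change 1.60).

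The other named genes did not overlap between the groups and were not called. CCK was at 161, 133 and 127 in control members and 663, 218 and 572 in ALP members (log2 difference 1.78, SE 0.34, edgeR adjusted p = 0.0816). ALP 1 and ALP 3 were far above the controls and ALP 2 stood closer to them. CCK passed without control 1 (adjusted p = 0.0286), without ALP 2 (0.00469), with DESeq2 (0.00138) and with no filter on low counts. GSTP1, a glutathione transferase, was at 88.9, 78.5 and 36.6 against 296, 172 and 350 (adjusted p = 0.0592). NCLN, PPIAli29, TUBB2A (a beta-tubulin) and DDX39B (an RNA helicase) had log2 differences of 2.17, 1.67, 1.44 and 1.44. On the lower side, CTNNA3, an alpha-catenin, was at 250, 191 and 274 in control members and 97.4, 119 and 63.6 in ALP members (log2 difference -1.31). SOX5 was at 45.9, 70.7 and 45.4 against 7.49, 7.66 and 19.1 (log2 difference -2.33). SLC6A4, the serotonin transporter, was at 57.4, 68.1 and 83.7 against 29.96, 15.3 and 19.1 (log2 difference -1.68). Its lower values were not confined to members. In CPM of total UMIs SLC6A4 averaged 65.8 in control and 17.6 in ALP members. In MOG-positive nuclei it averaged 91.4 and 34.5, also without overlap. For these genes all 3 ALP values were on 1 side of all 3 control values, as the rule for naming them required. COA7, SKA2, LORF2li195 and LORF2li216 completed the named genes with lower values in ALP TSs, together with PTPRT. CCK was not alone in passing under other settings. Without control 1 all of these uncalled genes passed except DDX39B and LORF2li216 (edgeR adjusted p from 0.011 to 0.047), and with no filter on low counts all except DDX39B. GSTP1 also passed with DESeq2 (adjusted p = 0.00114), without ALP 2 (0.02) and with the authors' limits on genes (0.0345), and PPIAli29, LORF2li195 and CTNNA3 passed with DESeq2 (adjusted p = 0.0311, 0.0121 and 0.0494). With scaling by total UMIs, GSTP1, LORF2li195, CTNNA3, PTPRT, SOX5, LORF2li216, COA7 and SLC6A4 passed (edgeR adjusted p from 0.0424 to 0.0495). LORF2li195 passed without control 2 (edgeR adjusted p = 0.0272) and with a term for Y-linked transcripts (0.0489).

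CNR1, which chose the members and was not tested, was at 928, 1062 and 831 CPM of total UMIs in control members and 1177, 1140 and 1172 in ALP members, without overlap. The marker genes outside the rule and RELN gave no call. COL19A1 was at 1136, 1699 and 1692 in control members and 1652, 1552 and 1272 in ALP members (log2 difference -0.02). RELN was at 826, 1186 and 951 against 1625, 835 and 928 (log2 difference 0.20). CXCL14 was at 502, 194 and 126 against 584, 364 and 598 (log2 difference 0.93, edgeR adjusted p = 0.379). The groups overlapped in COL19A1, RELN and CXCL14, and for CXCL14 control 1 lay among the ALP values. NPAS1 lay above the controls in all ALP TSs (log2 difference 0.47) and NR2F2, a transcription factor of CGE interneurons, below them (log2 difference -1.17), neither called. Of the neuropeptides other than CCK, NPY had a log2 difference of 2.07, which rested on 229 in ALP 3 against at most 52.4 in any other library.

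No gene list held a called gene between ALP and control TSs. Of 7 endocannabinoid genes tested, 0 had an unadjusted p under 0.05 and 0 were without overlap, with a median log2 difference of -0.26. Of 14 genes that couple CB1 to its effectors, 1 had an unadjusted p under 0.05: ADCY8 was at 51.6, 55.0 and 36.6 in control members and 18.7, 26.8 and 25.4 in ALP members (log2 difference -0.99, edgeR adjusted p = 0.312). Synaptic adhesion genes with ERBB4 had 7 of 28 with an unadjusted p under 0.05, against 12.6% of all features. Of these 28, ALP values were above all controls in 1 (IL1RAPL2) and below them in 5, against 8.1% and 8.69% of all features. Transmitter release genes had 3 of 19 above and 1 below, calcium channel genes 1 and 1 of 9, potassium channel genes 0 and 1 of 17, and glutamate receptor genes 0 and 1 of 16. GABA receptor genes had 0 above and 1 below of 12, and amyloid and tau genes 0 and 1 of 10. The median over all features was -0.01.

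The direction depended on the kind of feature. Of 359 features named as antisense, the ALP values were below all controls in 94 (26.2%) and above them in 4 (1.11%), with a median log2 difference of -0.55. Of 139 intergenic features, 23 were below (16.5%) and 7 above. Of 4244 features with gene names, 295 were below (6.95%) and 373 above (8.79%). When UMIs were scaled by library totals alone, 772 features of all kinds were below and 204 above. LORF2li195 and LORF2li216 carry the names of repeat-derived copies and are uncertain, since reads could be divided among such copies.

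The same genes were followed in other nuclei, with CPM scaled by total UMIs. CCK was at 151, 127 and 120 in control and 538, 197 and 443 in ALP members. In the VIP/CALB2 and LAMP5/KIT sets together, CCK was at 371, 293 and 137 against 998, 446 and 910. It was at 30.7, 23.6 and 41.2 against 82.5, 44.0 and 55.8 in MOG-positive nuclei, and at 51.7, 41.0 and 33.9 against 72.7, 59.8 and 70.4 in all other nuclei. ALP TSs were thus above control TSs in each of these sets of nuclei, MOG-positive nuclei included. All other nuclei are all nuclei but members, so they include the MOG-positive and other ADARB2 nuclei. The part of free RNA in the members' values was not tested. NCAPD2 was at 149, 125 and 77.8 against 210, 233 and 418 in the other ADARB2 sets, and overlapped between groups in MOG-positive nuclei and in the rest. LINC-UBE2E1-7 was at 22.8, 76.0 and 104.5 in control and 0.253, 1.12 and 0.158 in ALP TSs in all other nuclei. Of the 8 named genes with higher values, 6 were without overlap in the same direction in the other ADARB2 sets, against 6.54% of the 4742 features, and of the 10 with lower values 7 were, against 15.5%. In MOG-positive nuclei the counts were 3 (7.87% of features) and 8 (20.4%). They were 7 (6.07%) and 9 (19.3%) in NXPH1 InNs defined by DLX genes, and 5 (7.21%) and 8 (25.5%) in all other nuclei. The named genes were chosen for not overlapping in members. These comparisons share their animals, so they are not independent of each other.

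**Figure D5:**
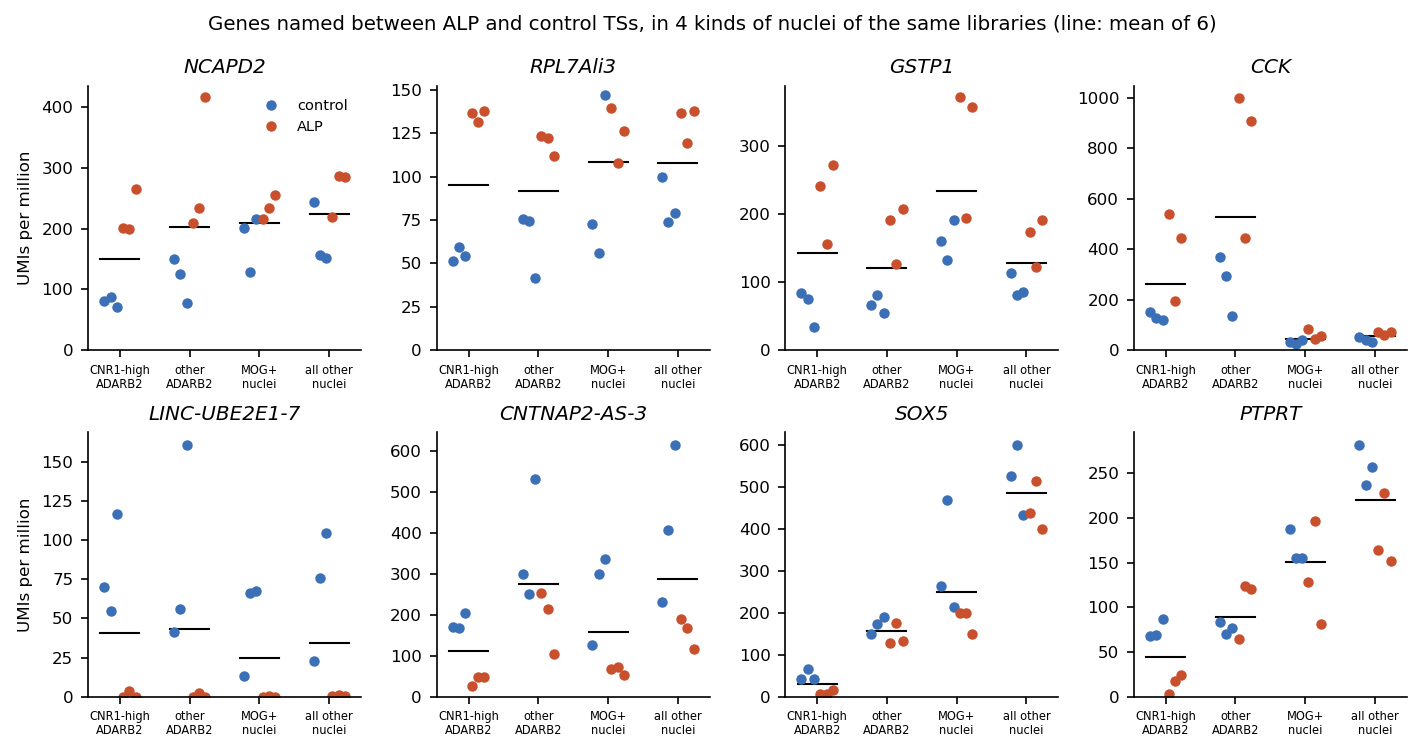
CPM (scaled by total UMIs) of 8 genes in CNR1-high ADARB2 InNs, the other ADARB2 sets, MOG-positive nuclei and all other nuclei, with 1 point per control or ALP library and a line for the mean of the 6. All other nuclei are all nuclei but members and include the other sets shown. CCK is higher in every ALP library than in every control library in all 4 kinds of nuclei (538, 197 and 443 against 151, 127 and 120 in CNR1-high ADARB2 InNs), whereas PTPRT is lower in ALP libraries in CNR1-high ADARB2 InNs and in all other nuclei and overlaps in the other ADARB2 sets and MOG-positive nuclei.

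Whether an ALP difference in members differed from that in the other ADARB2 sets was tested as the interaction of set and group, with library as a block and the VIP/CALB2 and LAMP5/KIT sets combined. The mix of the combined sets differed between libraries. VIP/CALB2 InNs numbered 38, 51 and 46 in control and 42, 73 and 27 in ALP TSs. LAMP5/KIT InNs numbered 43, 18 and 49 against 19, 30 and 19. The part of this mix in the interaction was not tested. The interaction passed for 2 of 6243 features (0.032%), while 337 reached an unadjusted p under 0.05 (5.4%). Alone, those other sets had 21 of 5871 features called between ALP and control TSs (0.358%). PTPRT, a receptor tyrosine phosphatase of synapses, was at 71.2, 73.1 and 90.3 in control members and 3.74, 19.2 and 32.1 in ALP members. In the other ADARB2 sets PTPRT was at 86.1, 69.4 and 77.4 in control TSs and 73.6, 129 and 142 in ALP TSs. The ALP difference in members was lower by 2.78 on the log2 scale (SE 0.43, edgeR adjusted p = 0.00573). In members the groups were apart, and in the other ADARB2 sets they overlapped. Lower values in ALP TSs were not confined to members: in CPM of total UMIs, PTPRT was at 829, 742 and 1099 in control and 688, 668 and 665 in ALP TSs in NXPH1 InNs defined by DLX genes. In all other nuclei, which include those NXPH1 InNs, PTPRT was at 282, 237 and 257 against 165, 228 and 152, also without overlap.

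ZNF804B, a zinc-finger gene, was at 342, 151 and 109 in control members and 7.49, 127 and 44.9 in ALP members. In the other ADARB2 sets ZNF804B was at 663, 266 and 308 against 386, 867 and 553, and the groups overlapped in both kinds of nuclei. The ALP difference in members was lower by 2.33 on the log2 scale (SE 0.37, edgeR adjusted p = 0.00573). PTPRT lost the call without ALP 1, ALP 2 or ALP 3 (adjusted p = 0.0679, 0.0839 and 0.0783) and ZNF804B without ALP 1 or ALP 3 (0.0679 and 0.346). The log2 differences were then -2.49, -2.80 and -3.14 for PTPRT and -1.93 and -2.26 for ZNF804B. The count of 2 became 0 without ALP 1, 1 without ALP 2, 0 without ALP 3 and 8 without control 3. For CCK the ALP difference in members and in the other ADARB2 sets differed by -0.06 on the log2 scale (SE 0.27, edgeR adjusted p = 0.989).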

How the data were processed

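Per the labels and the study's methods, hippocampal nuclei were profiled with 10x Genomics 3′ chemistry, and the authors aligned reads to a TreeshrewDB reference with Cell Ranger (version 3.1.0 per the labels, 6.1.2 per the file headers). The build is not given in the sources used here. The deposited matrices hold UMI counts per feature and nucleus, not normalized. They were not limited to nuclei under the authors' 2500 genes, a limit that would drop 57.1%, 54.4% and 68.3% of control members and 26.0%, 31.1% and 11.8% of ALP members, so it was run as an alternative. The members and gene lists were chosen with earlier results of these data known.

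Raw UMI counts were summed per library over each set and tested in edgeR 4.0.16 (R 4.3.3) with TMM scaling, a count minimum of 10 in filterByExpr and Benjamini-Hochberg adjustment over all features tested. TMM-scaled values exceed values per total UMIs, whose ratio to them was 0.940, 0.948 and 0.943 in control members and 0.812, 0.902 and 0.774 in ALP members. The study's mixed model over nuclei had sex as a term, which the labels do not give, so no such term was used. GAD1 and GAD2 held too few UMIs for the planned denominator of GABAergic nuclei, which was replaced by ADARB2-positive nuclei. The NXPH1 set held 3 or more NXPH1 and at most 1 ADARB2 UMI, and MOG-positive nuclei 2 or more MOG UMIs. Single values were compared by exact permutation over libraries. Doublets were scored with Scrublet (scanpy 1.11.5) and kept. The tests were tried on simulated data.

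Named genes were, for ALP against control TSs, the called features without overlap, filled up to 8 in each direction by the smallest unadjusted p among gene-named features, plus up to 2 antisense or intergenic features. Between sets they were the 8 largest called differences in each direction with 50 or more CPM in the higher set. DESeq2 1.42.0, other scalings, filters, thresholds and left-out libraries were tried as alternatives. Each library is 1 animal. Results for a few genes are not reported here.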

Additional observations from a re-analysis of the deposited data

Results flagged for a closer look

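PTPRT was singled out because its ALP difference in CNR1-high ADARB2 InNs differed from that in the VIP/CALB2 and LAMP5/KIT InNs by -2.78 on the log2 scale, in a test of the interaction itself. ZNF804B was singled out in the same way, with a difference of -2.33. The mix of VIP/CALB2 and LAMP5/KIT InNs differed between libraries, and its part in these differences was not tested. Neither call held without ALP 1 or without ALP 3, when the differences were -2.49 and -3.14 for PTPRT and -1.93 and -2.26 for ZNF804B. PTPRT was also lower in ALP TSs without overlap in NXPH1 InNs defined by DLX genes and in all other nuclei, which include them.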

How the results depend on the processing

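Between ALP and control TSs, the 4 calls became 19 with DESeq2 (7 higher, 12 lower), 200 with no filter on low counts (45 and 155), 2 with a CNR1 minimum of 5, 19 with libraries scaled by total UMIs only (3 and 16) and 7 with a term for Y-linked transcripts (1 and 6). The last of these and the scaling by totals were chosen after seeing the data. With each replicate left out the count ran from 0 to 81. Upper-quartile and RLE scaling, the limit on mitochondrial UMIs, removal of marked doublets and the authors' limits on genes each gave 4 calls, though with those limits only 1 call was shared. With no filter, calls against VIP/CALB2 InNs went from 260 to 499, against LAMP5/KIT InNs from 79 to 192, against NXPH1 InNs from 345 to 804 and in the interaction from 2 to 11. With replicates left out they ran from 256 to 273, 53 to 90, 324 to 403 and 0 to 8. Without the library block, calls against LAMP5/KIT InNs were 41. With the block kept and the NXPH1 set defined by DLX genes, calls against that set were 604. The difference in the share of ADARB2 nuclei turned to 1.94 with thinning to 5000 UMIs and, with replicates left out, ran from -7.66 to 0.318. The cause of these changes was not tested. No named gene changed direction. Same-numbered control and ALP libraries did not deviate together (r = 0.037, 0.083 and -0.082), so the numbers do not pair the animals. A replicate block gave 5 calls, 3 of them shared, and RPL7Ali3 had an edgeR adjusted p of 0.0649 (0.0527 to 0.301 over the alternatives in which its call was lost). Limiting members to nuclei with GAD was not run, because 1 to 6 nuclei per library remained. Depth limits the members to between 203073 and 607910 UMIs per library.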
